A study of Rattus norvegicus with 5 samples.

Results

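The response of the rat lung to urban dust within 2 to 6 h was read from 3 arrays of a series of 5. The early array carried lung RNA taken 2, 4 and 6 h after EHC-93 dust, collected from urban outdoor air, was instilled into the trachea. The saline sham array carried lung RNA taken 2, 15 and 24 h after saline given by the same route, and the untreated control array carried lung RNA of 3 rats that received no instillation. The intermediate (15, 18 and 21 h) and late (24, 32 and 40 h) EHC-93 arrays are given only beside the early values. Each array carried 1 pool made from equal RNA amounts, so a group is 1 array, the pooled times cannot be separated, and no difference has a replicate check, an error or a p-value. The sham pool shares only its 2 h time with the early pool. The sources used here do not give strain, age, sex, dose or the number of rats behind the instilled pools. All 8740 probe sets that are not array controls were used, of the 8799 in the table: 7006 are listed under 1 gene symbol, 308 under several and 1426 are not in the annotation table.

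Inhaled or instilled particles meet the airway and alveolar epithelium and the resident macrophages first. These cells sense metals, oxidants and particle surfaces through stress kinases, NF-kB (a family of transcription factors held in the cytoplasm by inhibitor proteins until a signal frees them), Nrf2 and heat shock factors. Within hours they transcribe immediate early genes, which encode short-lived transcription factors and regulators, and then chemokines that draw neutrophils and monocytes into the airspace. Metallothioneins, which bind metal ions, heme oxygenase and inducible chaperones are classical early products of metal, oxidant and protein stress.

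Intensities were scaled so that the arrays had equal medians, with a factor of 1.01 for the early array, 0.931 for the sham and 0.970 for the untreated array, and values under a floor of 172.5 were set to it. Between 5191 and 5346 probe sets were above the floor on an array. The lung label held: surfactant protein C (Sftpc), the product of alveolar type 2 cells, read 48084 early, 55179 for sham and 53586 for untreated, the club cell secretoglobin Scgb1a1 read 19738, 23792 and 25506, and the alveolar type 1 receptor Ager read 30010, 28269 and 25949. The ratio of 5′ to 3′ control signal of beta-actin and GAPDH was highest on the early array, at 43.1% and 67.2%, where the sham had 14.7% and 25.4% and the untreated array 24.4% and 39.1%. That of hexokinase, whose 3′ signal as deposited was only 135.7 to 364.7, did not follow this order: it was 20.2% early, 61.2% and 19.1% on the later arrays, 18.1% for sham and 12.4% for untreated. The part of these ratios in the differences below was not tested.

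A probe set or gene is called higher or lower where the early array differed at least 2-fold from each of the 2 control arrays in the same direction. Of 5931 probe sets measured (above the floor on at least 1 of the 3 arrays), 196 (3.3%) were higher and 28 (0.472%) lower, so 87.5% of the calls were higher. The same rule turned on the sham array, against the early and untreated arrays, gave 47 higher and 43 lower, and turned on the untreated array it gave 35 and 29. The early array thus had several times as many higher probe sets as either unexposed array, while its lower probe sets were fewer than those of the sham and close in number to those of the untreated array. With 1 probe set per gene (the one whose mean log2 value over the 5 arrays was highest), 93 of 3542 measured genes (2.63%) were higher and 11 (0.311%) lower, so 89.4% of gene calls were higher. That share was 76.9% when arrays were scaled to the same 75th percentile instead. Genes close to the threshold depended on the scaling. Of the 93 higher genes 79 stayed called on the values as deposited, 70 at the 75th percentile and 80 after quantile normalization. Among the 84 called genes named by a set rule, Cd14, Gadd45a, Mmp12, S100a9, Selp and Timp1 were called under none of 3 other scalings. Asns, Bhlhe40, Cish, Csf3, Dnajb9, Edn1, Fgg, Kcnk1 and Nfkbia were not called at the 75th percentile, and none of these genes changed direction. Below, a value "against" 2 others is the early intensity against the sham and then the untreated one. In bulk lung RNA, more cells of a type and more RNA per cell cannot be told apart in any of these differences. The shares of 2.63% higher and 0.311% lower are the scale for the list counts below, so a short list without a call differs little from all genes.

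**Figure D1:**
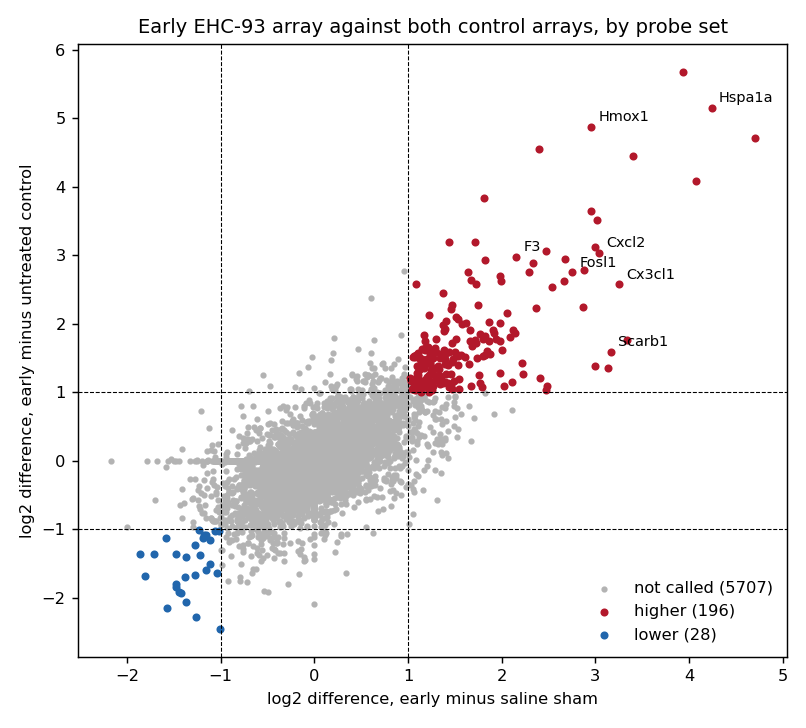
Each point is 1 measured probe set, by its log2 difference of the early array from the saline sham (horizontal axis) and from the untreated control (vertical axis), after flooring; dashed lines mark 2-fold. The 196 higher probe sets fill the upper right corner and the 28 lower ones the lower left.

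Most differences were modest in size. For each of the 93 higher genes the smaller of its 2 differences from the controls was taken, and the median of these was 1.25 on the log2 scale, 9 genes exceeded 4-fold from both controls, and 12 genes were at the floor on both control arrays, so that their fold is only a lower bound. Over the higher genes the controls differed little in the signed median, in which opposite differences cancel. The sham array was above the untreated one for 51 of the 93 genes, with a median difference of 0.05 on the log2 scale. Among all 3542 measured genes it was above for 1458, with a median of -0.06. Only 4 of the 93 had a sham value at least 2-fold above the untreated value. The other direction was not counted, and Rab7a, with the sham under the floor and 467 on the untreated array, is a case of it. Over all measured genes the early array differed from the mean of both controls by a median of -0.03.

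**Figure D2:**
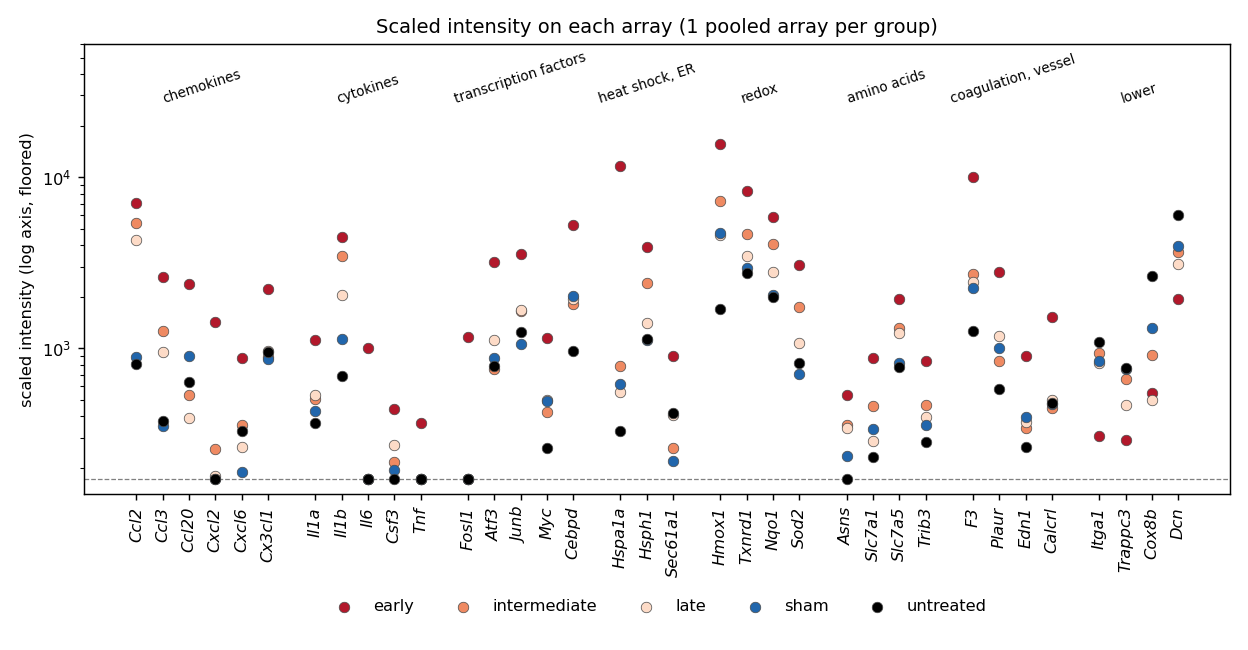
Scaled intensity (log axis, values under the floor drawn on the dashed line) of selected genes on the 5 arrays, each point 1 pooled array, grouped by function. For the higher genes the early point is the highest of the 5; for Itga1, Trappc3 and Dcn it is the lowest.

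Among the function lists, chemokines had the largest share of higher genes. Of 14 measured CXC, CC and other chemokines 7 were higher and none was lower, and the list median was 0.94 (log2), or 0.57 when the floor was raised to the 60th percentile. The 7 included attractants of monocytes (Ccl2), of macrophages and lymphocytes (Ccl3, Ccl4), of neutrophils (Cxcl2, Cxcl6), of dendritic and T cells (Ccl20), and the membrane-bound chemokine Cx3cl1. Ccl20 read 2375 early, 531 and 389 on the intermediate and late arrays, 907 for sham and 638 for untreated, and was 2.62-fold and 3.72-fold above the controls. Cxcl6 read 877 against 189 and 327. Ccl4 read 377 with both controls under the floor, at least 2.18-fold higher. Cxcl2 read 1416 early, 256 and 180 on the later arrays, with both controls under the floor. The early value of each of these 4 was the highest of the 5 arrays.

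Cx3cl1 was measured by 3 probe sets that all stood higher but to different extents. The one that represents the gene read 2221 against 870 and 948 (2.55-fold and 2.34-fold). Another read 2900 against 759 and 843, and the one made from an expressed sequence tag read 2246 against 235 and 377, 9.56-fold and 5.96-fold. Of the 7 chemokines that were not called, Cxcl3, a neutrophil attractant, read 6109 against 3779 and 3704, Ccl5 read 1963 against 1028 and 2062, and the interferon-induced Cxcl10 read 334 against 173 and 227. Cxcl13, a B cell attractant, read 983 against 1269 and 1436, and Xcl1 was under the floor early and at 779 on the sham array.

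Of 16 measured interleukins, TNF and colony-stimulating factors 5 were higher and none was lower, with 7 above 0, 9 below 0 and a median of -0.08: a few members stood far out and the rest did not share their direction. Il1b and Il1a, the secreted and the cell-associated form of interleukin 1, read 4479 against 1131 and 692, and 1122 against 430 and 366. All 3 probe sets of Il1b and both of Il1a were higher. Il6, the main inducer of acute phase proteins, read 1004, with both later arrays and both controls under the floor, whereas its second probe set, made from the coding region, read 193 with both controls under the floor. Tnf, the prototype macrophage cytokine, read 363 and was under the floor on the 4 other arrays, at least 2.11-fold higher than each control. Csf3, the growth factor of granulocytes, read 439 against 196 on the sham, with the untreated array under the floor. None of the 21 measured receptors for cytokines, chemokines and growth hormones was called, beside 2.63% higher among all measured genes, and 13 lay above 0 (median 0.13). The TNF receptor Tnfrsf1a read 2873 against 1279 and 1503, and the interleukin 4 receptor Il4r read 2393 against 1800 and 1575.

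Markers of neutrophils were in the median also higher on the early array. Their median difference of the sham from the untreated array was 0.60 (log2), against 0 for the chemokines. Of 6 measured neutrophil and granulocyte markers 3 were higher (S100a8, S100a9 and Padi4), the median difference was 1.23, and the summed intensity was 37844 early, 24335 for sham and 8644 for untreated. Lcn2, which epithelium makes too, held most of that sum; without it the 5 other markers summed to 6861, 4001 and 2668, with a median of 1.14. S100a8, a subunit of the calprotectin pair of calcium-binding proteins, read 2121 against 816 and 539, and its partner S100a9 2850 against 1339 and 980. S100a9 was called under none of the 3 other scalings. Padi4, which modifies histones in neutrophils, read 957 against 413 and 458 and was not called on the values as deposited. Of the 11 markers on the array, 5 (Cxcr2, Defa5, Itgam, Mmp8 and Mmp9) were under the floor on all 3 arrays. Lcn2, the iron-chelating lipocalin of granules and epithelium, read 30982 against 20334 and 5976 and so fell short of 2-fold over the sham. Of 9 macrophage and monocyte markers 2 were higher (Cd14 and Mmp12), with summed intensities of 67054, 71390 and 63545. The part of cell numbers in the higher chemokine and cytokine genes was not tested.

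**Figure D3:**
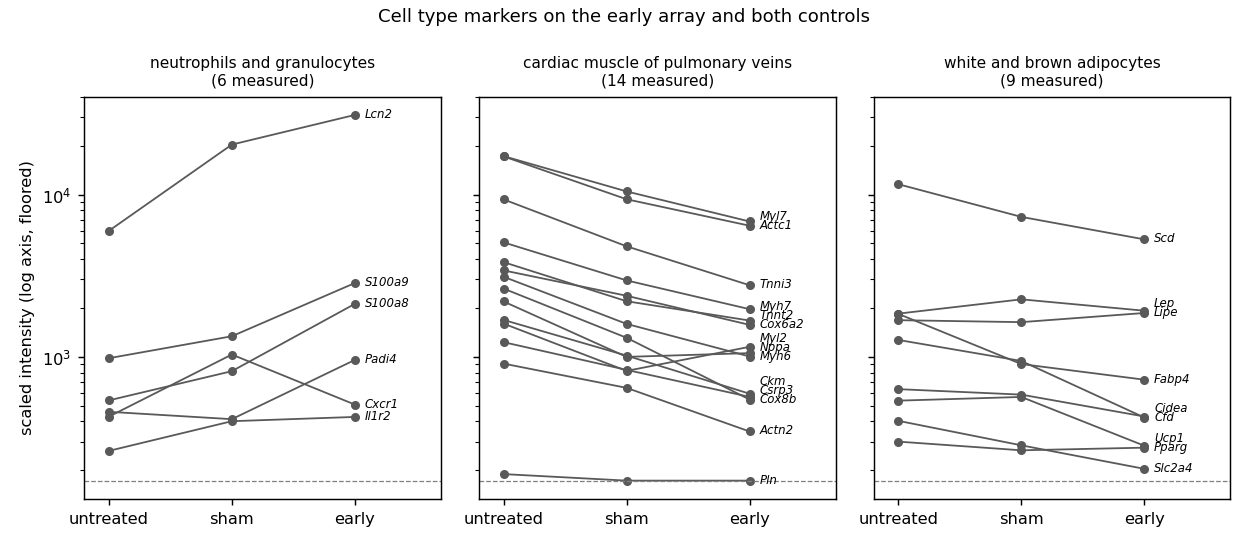
Scaled intensity (log axis, floored; dashed line, floor) of the measured marker genes of neutrophils, cardiac muscle and adipocytes on the untreated, sham and early arrays, each line 1 gene. Of 6 neutrophil markers 5 had a higher early value than the mean of both controls, against 1 of 14 cardiac and 1 of 9 adipocyte markers.

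Among the transcription factors that relay such signals, 4 of 13 measured AP-1, Atf and CREB family members were higher and 11 lay above 0 (median 0.73, and 0.30 with the floor at the 60th percentile). Fosl1 and Junb are AP-1 subunits, Atf3 is a stress-induced factor of the same superfamily, and Crem encodes cAMP-responsive regulators. Fosl1 read 1162 early and was under the floor on the 4 other arrays. Junb read 3531 against 1059 and 1243. Atf3 read 3209 early, 755 and 1124 on the later arrays, and 878 and 788 on the controls. Crem read 484 against 216 on the untreated array, with the sham under the floor. Of 24 other immediate early genes 4 were higher: Zfp36, which promotes decay of cytokine mRNAs (9704 against 4041 and 3432), Ier3 (3105 against 1124 and 946), Ifrd1 (4003 against 1383 and 953) and Myc (1145 against 490 and 262). Both probe sets of Myc, Zfp36, Ier3 and Junb were higher.

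Some immediate early genes were called only by a probe set that did not represent the gene. Egr1, a zinc finger factor of the first minutes to hours after a stimulus, had 2 such probe sets, at 5369 against 1498 and 1763 and at 1708 against 491 and 594. Dusp1, the phosphatase that switches off stress kinases, read 1987 against 738 and 752 in one probe set and 2960 against 2161 and 1891 in the one that represents it. Errfi1, an inhibitor of the EGF receptor, read 609 with both controls under the floor. By the representing probe sets none of 24 measured MAP kinases and dual-specificity phosphatases was called, and 13 of them lay below 0. By any probe set 3 of the list were higher, beside 4.03% of all measured genes. Dusp6 was also called by a second probe set, at 807 with the sham under the floor and 334 on the untreated array.

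Feedback regulators of inflammatory signalling were among the higher genes. Of 8 measured genes of NF-kB, toll-like and death receptor signalling 2 were higher (Nfkbia and Gadd45a) and 7 lay above 0 (median 0.77, and 0.34 with that higher floor). Nfkbia, the inhibitor that retains NF-kB in the cytoplasm and is itself an NF-kB target, read 7182 against 3279 and 2552, and its second probe set 5754 against 2013 and 1339. Gadd45a, a growth arrest and DNA damage gene, read 1739 against 834 and 827. Both passed narrowly and were not called with arrays scaled to the same 75th percentile or quantile normalized. Cd14, the co-receptor for bacterial lipopolysaccharide, read 1455 against 681 and 600, but its second probe set, at 722 against 415 and 364, did not pass. In the JAK-STAT and SOCS list 3 of 15 were higher: Cish (769 against 340 and 246) and Socs2 (704 against 237 and 240), which damp cytokine receptor signals, and Stat3 (370, with the sham under the floor and 176 on the untreated array), the factor downstream of interleukin 6. Cebpd, a factor of the acute phase response, read 5250 against 2030 and 965. No member of 35 measured interferon response and antigen presentation genes was called (15 above 0, median -0.06), beside 2.63% higher among all measured genes.

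Promoter windows of higher genes from RefSeq (assembly GRCr8, 300 bases around the annotated start) are shown to set the measured genes beside their sequence. RefSeq windows matched 73 of the 93 higher genes. A first form of kappa-B, the NF-kB binding motif, was in 6 of the 73 windows (8.22%) on either strand, against 59 windows of measured genes (2.02%) and 1.51% of all windows; the 6 were Bcat1, Ccl20, Cxcl2, Cxcl6, Il6 and Nfkbia. A second form of kappa-B, which can overlap the first, was in 6.85% of the windows of higher genes, 2.16% of measured and 2.14% of all. The AP-1 letters TGANTCA were in 6.85%, 5.69% and 7.33%, the CRE letters TGACGTCA in 4.11%, 2.57% and 1.91%, and the heat shock letters GAANNTTC in 6.85%, 5.11% and 8.34%. A second form of the heat shock element was in 4.11%, 6.89% and 8.44%, and the CArG box of serum response genes in 1.37%, 1.65% and 1.64%. The antioxidant element TGACNNNGC (20.5%, 15.0% and 12.2%), the metal response element TGCGCNC (27.4%, 25.3% and 15.0%) and the TATAAA box (23.3%, 9.74% and 14.3%) were counted in the same way. Hence of these motifs the kappa-B forms and TATAAA were listed in shares over 2 times those of the measured genes. These are letters in a short window, and a match is a description only.

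Windows of 4 higher genes, Cxcl2, Il6, Nfkbia and Ccl20, were chosen for printing because they hold kappa-B letters; those of the higher genes Il1a, Il1b, Tnf and Cx3cl1 hold neither form and are not shown. Hsph1 was likewise chosen as a chaperone with heat shock letters. The window of Dnajb9, another higher chaperone, holds neither heat shock form. No match of any motif was found for Hspa1a, which may have no window here. Capitals mark the kappa-B, CRE and heat shock letters, and each runs 5′ to 3′ along the gene's strand.
Cxcl2, chr14:17467206-17467505, minus strand: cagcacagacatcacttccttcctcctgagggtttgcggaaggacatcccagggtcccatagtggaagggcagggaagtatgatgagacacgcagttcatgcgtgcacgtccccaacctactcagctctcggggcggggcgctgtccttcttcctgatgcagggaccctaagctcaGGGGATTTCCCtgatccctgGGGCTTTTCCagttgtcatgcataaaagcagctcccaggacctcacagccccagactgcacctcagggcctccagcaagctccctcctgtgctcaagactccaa
Il6, chr4:5894526-5894825, minus strand: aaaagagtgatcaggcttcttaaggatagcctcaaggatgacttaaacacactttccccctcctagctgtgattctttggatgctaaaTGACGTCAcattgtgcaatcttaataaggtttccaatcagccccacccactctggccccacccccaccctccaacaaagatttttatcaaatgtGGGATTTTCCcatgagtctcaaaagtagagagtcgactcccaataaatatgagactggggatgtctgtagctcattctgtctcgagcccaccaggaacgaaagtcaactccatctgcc
Nfkbia, chr6:78597023-78597322, minus strand: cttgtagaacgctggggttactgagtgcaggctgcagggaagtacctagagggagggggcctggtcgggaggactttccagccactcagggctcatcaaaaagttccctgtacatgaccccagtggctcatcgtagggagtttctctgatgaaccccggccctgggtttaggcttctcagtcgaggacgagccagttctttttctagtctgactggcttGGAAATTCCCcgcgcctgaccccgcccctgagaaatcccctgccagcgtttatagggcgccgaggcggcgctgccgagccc
Ccl20, chr9:91836909-91837208, plus strand: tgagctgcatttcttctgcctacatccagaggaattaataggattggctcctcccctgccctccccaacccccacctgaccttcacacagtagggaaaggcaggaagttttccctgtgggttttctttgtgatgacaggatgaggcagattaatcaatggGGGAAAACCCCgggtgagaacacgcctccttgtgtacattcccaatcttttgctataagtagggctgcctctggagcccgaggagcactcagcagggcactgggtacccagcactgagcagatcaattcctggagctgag
Hsph1, chr12:10427118-10427417, plus strand: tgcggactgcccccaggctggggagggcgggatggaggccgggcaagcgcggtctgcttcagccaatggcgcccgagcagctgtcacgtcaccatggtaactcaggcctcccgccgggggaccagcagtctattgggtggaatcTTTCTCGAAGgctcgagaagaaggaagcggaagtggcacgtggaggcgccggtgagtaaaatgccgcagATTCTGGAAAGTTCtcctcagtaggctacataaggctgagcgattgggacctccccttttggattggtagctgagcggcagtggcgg

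Inducible chaperones held the largest difference of a named gene. Hspa1a, an inducible member of the 70 kDa heat shock family, read 11637 early against 788 and 557 on the later arrays and 615 and 327 on the controls. The 2 probe sets that the annotation lists under both Hspa1b and Hspa1a, and which were assigned to neither, read alike: one read 13352 against 1263 and 610, and the one from the coding region read 4499 and was under the floor on the 4 other arrays, at least 26.1-fold higher than each control. Of 23 measured heat shock proteins and co-chaperones 3 were higher, 17 lay above 0 and the median was 0.33 (0.21 with arrays scaled to the same 75th percentile). Hsph1, a large partner of the 70 kDa family, read 3905 against 1121 and 1139, and Dnajb9, a co-chaperone of the endoplasmic reticulum, 1113 against 496 and 518. Dnajb1 (1795 against 836 and 600) and Dnaja1 (2468 against 1071 and 1061) were called by a second probe set only.

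Endoplasmic reticulum chaperones had the same split between probe sets. Of 16 measured members of that list 2 were higher by the representing probe set, 6 by any probe set, and the median was 0.29 (0.17 at the 75th percentile). Sec61a1, a subunit of the channel through which proteins enter the endoplasmic reticulum, read 898 against 220 and 420. Calr, calreticulin, read 2984 against 953 and 1118 in its coding-region probe set, but 13579 against 12108 and 9779 in the representing one. P4hb, a disulfide isomerase, read 1196 against 281 and 342 in one probe set and 15055 against 10033 and 9421 in the other. Canx, calnexin, read 1360 against 553 and 454 in one and 7520 against 8149 and 9121 in the other. In each of these 3 genes the representing probe set was not called.

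The called probe sets that the annotation lists under metallothionein symbols carry several symbols each. The one listed under Mt1m and Mt2A read 21668 early, 1889 and 1400 on the later arrays, 1418 for sham and 423 for untreated, 15.3-fold and 51.2-fold above the controls. The one listed under Mt1f, Ttr and Mt1 read 15902 against 3148 and 2149, 5.05-fold and 7.40-fold. Of 10 measured genes with 1 symbol in the metal and iron list, 1 was higher: Hmox1, heme oxygenase, which releases iron from heme. Its coding-region probe set read 6190 against 799 and 211, 7.75-fold and 29.3-fold, a larger difference than in the representing probe set (15565 against 4745 and 1700). Slc11a2, a divalent metal transporter, was called by a second probe set at 1709 against 648 and 643.

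In the list of 44 measured antioxidant, glutathione and Nrf2 target genes 4 were higher, 20 lay above 0 and the median was -0.03. Sod2, the mitochondrial superoxide dismutase, read 3065 against 704 and 815, and the quinone reductase Nqo1 5872 against 2058 and 1989. Txnrd1, which reduces thioredoxin, read 8351 against 2953 and 2766, and its second probe set 2973 against 465 and 388. With Hmox1 these were the 4, and the remaining 40 were not called. None of 42 measured genes of xenobiotic metabolism was called by its representing probe set and 34 lay below 0 (median -0.20). By any probe set 1 was higher, beside 4.03% of all measured genes. Cyp1a1, the usual marker of aryl hydrocarbon receptor activation, was under the floor on all 3 arrays in the probe set that represents the gene. Probe sets without a symbol were assigned to no gene, so one made from Cyp1a1 would not be counted here. Cyp1b1, another target of that receptor, read 1251 against 639 and 705. Its second probe set was called higher, at 482 with both controls under the floor.

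Genes of amino acid supply and of the integrated stress response were also among the calls. Of 13 measured members of the list of amino acid stress, transport and synthesis 5 were higher (Atf3 among them), 11 lay above 0 and the median was 0.58. Slc7a1 and Slc7a5 import cationic and large neutral amino acids, Asns makes asparagine, and Trib3 is a pseudokinase of the integrated stress response. Slc7a1 read 881 against 335 and 231, and Slc7a5 1945 against 820 and 775. Asns read 532 against 235, with the untreated array under the floor. Trib3 read 841 against 357 and 285. Ppp1r15a, a phosphatase subunit that ends the same stress response, was called by a second probe set at 1155 against 262 and 317. Outside the lists, Bcat1, which transaminates branched-chain amino acids, read 500 with both controls under the floor, Mat2a, which makes the methyl donor S-adenosylmethionine, 555 against 204 and 185, and Aimp2, a scaffold of the aminoacyl-tRNA synthetase complex, 1045 against 463 and 294.

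Of 20 measured genes of sterol synthesis and lipoprotein uptake 1 was higher by the representing probe set and 4 by any, 14 lay above 0, and the median was 0.27 (0.15 at the 75th percentile). Of all measured genes 2.63% were higher by the representing probe set and 4.03% by any. Idi1, an isomerase of the isoprenoid pathway, read 1877 against 658 and 550. Insig1, the sterol sensor that restrains synthesis, read 3777 against 1551 and 1660 in a second probe set. Scarb1, the receptor for high-density lipoprotein, was called by 2 second probe sets, at 2009 against 224 and 666 and at 1514, with the sham under the floor and 595 on the untreated array. Soat1, which esterifies cholesterol, read 513 against 189 and 243, and Olr1, the endothelial receptor for oxidised low-density lipoprotein, 1912 against 606 and 506. In nucleotide metabolism 2 of 14 were higher: Uck2, a uridine-cytidine kinase (891, with the sham under the floor and 189 on the untreated array), and Atic, an enzyme of purine synthesis (1430 against 619 and 451). In glycolysis and hypoxia 2 of 27 were higher: the oxygen-regulated factor Hif1a (735 against 289 and 338) and the glycolytic enzyme Aldoa (5030 against 1997 and 1982).

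Genes of coagulation and of the vessel wall were also among the higher ones. In the coagulation list 3 of 19 were higher: F3, tissue factor, which starts the clotting cascade (10016 against 2250 and 1269), Plaur, the urokinase receptor (2806 against 1009 and 578), and Fgg, the fibrinogen gamma chain (9539 against 4297 and 3069). Thbd, the anticoagulant thrombomodulin, read 1455 against 616 and 535 in a second probe set but 711 against 714 and 819 in the representing one. Of 30 vasoactive genes 3 were higher: Nos2, Edn1 and Calcrl. Nos2, inducible nitric oxide synthase, read 732 against 186 and 181, and neither of its 2 other probe sets passed, 1 at 173 early against 251 for untreated, the other under the floor early. Edn1, a vasoconstrictor peptide, read 895 against 395 and 266, and Calcrl, the receptor for calcitonin gene-related peptide and adrenomedullin, 1518 against 474 and 476. The second probe set of Calcrl ran the other way, under the floor early against 340 and 423.

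Selp, the endothelial and platelet selectin that slows neutrophils on the vessel wall, read 504 against 243 on the untreated array, with the sham under the floor. It was the 1 higher gene among 19 integrins and adhesion molecules, and Itga1 was the 1 lower. None of 7 endothelial markers was called by its representing probe set (median -0.01); the adhesion molecule Pecam1 read 1222 against 432 and 644. In the complement list of 16 measured genes 1 was higher and 1 lower. These were Cd55, which protects cells from complement (700 against 198 and 241), and Cfd, factor D. The higher shares of the adhesion and complement lists (5.26% and 6.25%) are 1 gene each, beside 2.63% of all measured genes. Of 17 metalloproteinases and inhibitors 2 were higher: Timp1 (3734 against 1803 and 1301) and the macrophage elastase Mmp12 (381, with the sham under the floor and 190 on the untreated array). None of 34 measured matrix proteins and collagens was higher, 1 was lower, and the median was 0.14.

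Growth factor, TGF-beta and apoptosis lists had 1 higher gene each. Areg, an epithelial ligand of the EGF receptor, was the only higher gene among 33 growth factors, at 1068 against 268 and a value under the floor. Ltbp2, a matrix protein named as a member of the latent TGF-beta binding protein family, was the 1 higher gene of 26 in the TGF-beta pathway (649 against 247 and 293). Bcl2l1, an inhibitor of apoptosis and the 1 higher gene of 16 apoptosis regulators, read 1022 against 445 and 363, and its other 2 probe sets, at 455 against 251 and 236 and at 493 against 205 and 369, lay in the same direction without passing. These shares (3.03%, 3.85% and 6.25%) are 1 gene each, beside 2.63% of all measured genes. None of 30 measured cell cycle genes was called (22 below 0, median -0.15).

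Of the 93 higher genes 67 were members of at least 1 list and 26 of none. Msn, moesin, which links actin to the membrane, was the 1 higher gene among 33 of the cytoskeleton list (3.03%, near the 2.63% of all measured genes) and read 1263 with the sham under the floor and 265 on the untreated array. Among the 26, named after their values were seen, Cald1 (579 against 183 and a value under the floor), Cttn (391 against a value under the floor and 184) and Cap1 (628 against 263 and 308) bind actin, and Rock2 (394 with both controls under the floor) is a kinase that drives contraction. Mapre1, a protein of microtubule ends, read 583 against 199 and 254. Rab7a, Arf2 and Vmp1 act in membrane traffic and autophagy: Rab7a read 958 with the sham under the floor and 467 on the untreated array, Arf2 1033 against 441 and 516, and Vmp1 2196 against 817 and 994. Msn, Rab7a and Arf2 lay nearer to the untreated array than to the sham.

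Further genes in no list were C2cd4b, a nuclear protein of endothelium under inflammatory cytokines (2460 against 700 and a value under the floor), Rasl11b, a small GTPase-like protein (1583 against 585 and a value under the floor), Hivep2, a zinc finger protein that binds kappa-B-like sites (1239 against 402 and 307), and Fat1, a giant cadherin (571 with both controls under the floor). The epithelial genes Prss22, a serine protease of airways, and Tgm1, a transglutaminase of epithelial barriers, read 386 and 371 with both controls under the floor. Of the single higher members of larger lists, Kcnk1, a potassium channel subunit, read 1497 against 666 and 565 (1 of 65 channels), Slc6a20a, an amino acid transporter, 1057 against 381 and 390 (1 of the 3 higher among 89 solute carriers), and Bhlhe40, a repressor in the circadian clock, 356 with both controls under the floor (1 of 9 clock genes). The shares of higher genes in the channel, solute carrier and clock lists were 1.54%, 3.37% and 11.1%, beside 2.63% of all measured genes. P2ry2, the receptor through which airway epithelium senses extracellular ATP and UTP, read 2221 against 841 and 744. Cav1, the caveola protein of type 1 cells and endothelium, read 2655 early, 317 and 535 on the later arrays and 808 and 783 on the controls. Its single probe set is made from a coding region, and the intermediate array, where it was lowest, had the lowest 5′ to 3′ ratio of beta-actin (9.07%) and of GAPDH (23.6%). The hexokinase ratio was the highest there (61.2%), and the part of these ratios in the Cav1 values was not tested.

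**Figure D4:**
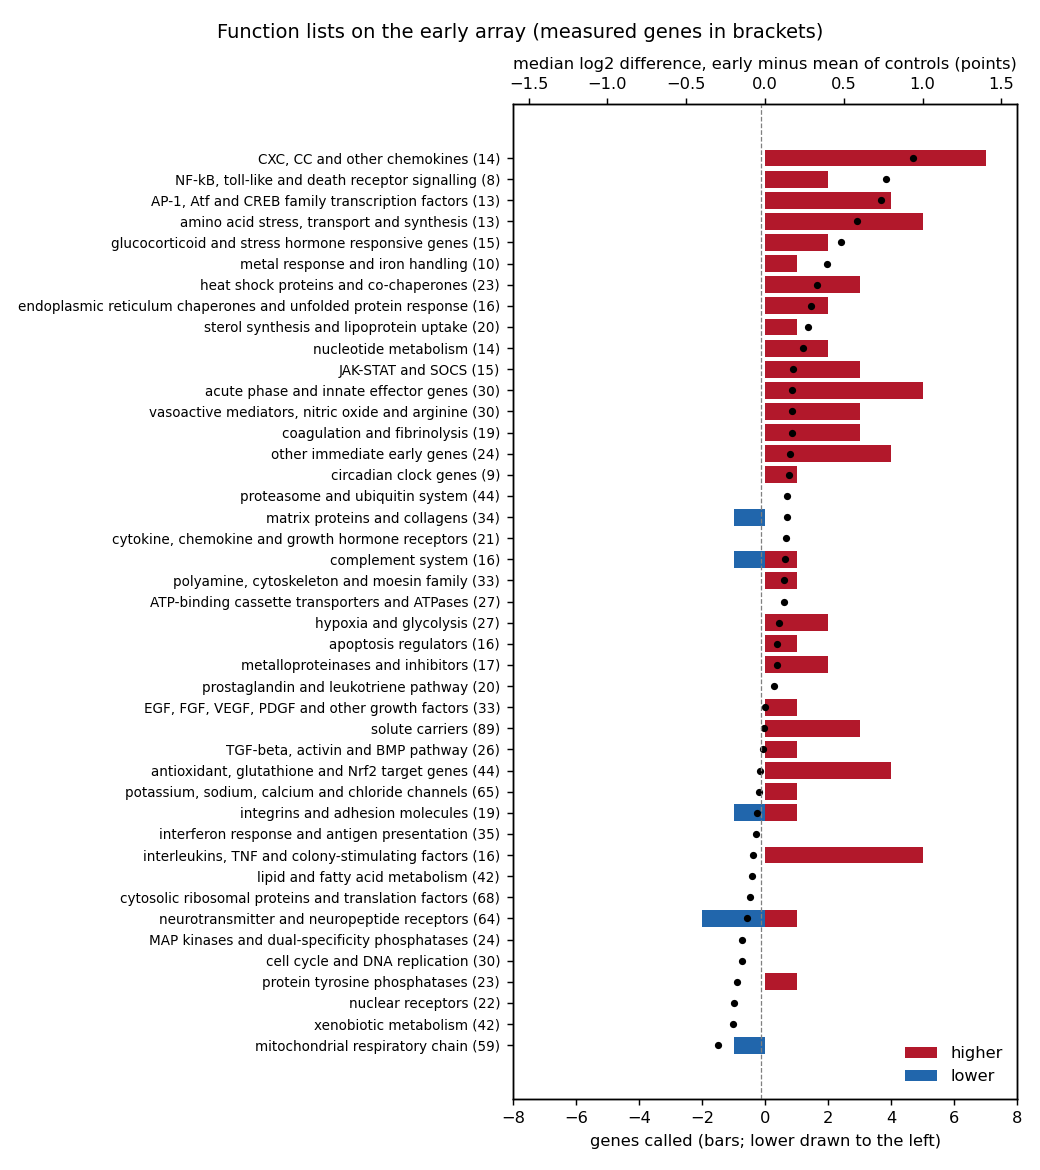
For 43 function lists, bars give the number of measured genes called higher (right) and lower (left) on the early array, and points the median log2 difference from the mean of both controls (upper axis). The dashed line marks the median of all measured genes, -0.03. Chemokines had the most calls (7 of 14) and the mitochondrial respiratory chain the lowest median.

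Lower genes were few and shared little. Itga1, the collagen-binding integrin alpha 1 chain, read 305 early, 943 and 825 on the later arrays, and 847 and 1093 on the controls, 2.77-fold and 3.58-fold lower early. Trappc3, a subunit of a vesicle tethering complex, read 292 against 754 and 769. Dcn, the collagen-binding proteoglycan decorin of fibroblasts, read 1933 against 3974 and 6012, while its 3 other probe sets did not pass. Against the mean of both controls, its coding-region difference was 0.25 (log2), the other way. That of its measured probe sets from outside the coding region, the representing one included, had a mean of -0.79. Cyp24a1, which degrades vitamin D, read 234 against 523 and 494, and Alkbh2, a DNA repair enzyme, 224 against 452 and 454. The receptor for thyrotropin-releasing hormone, Trhr, read 314 against 757 and 739, and the glutamate receptor subunit Grin2a was under the floor against 416 and 548. Shisa4 and Lmbr1l were at or under the floor early and completed the 11 with Cox8b and Cfd.

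Cox8b and Cfd are genes of heart muscle and fat, and most other cardiac and adipocyte markers lay the same way. Cox8b, a respiratory chain subunit of heart and brown fat, read 545 against 1310 and 2634. Cox8b was called only in its coding region, at -1.77 (log2) from the mean of both controls, and stood at -0.80 outside it. It was the 1 called member of 14 cardiac muscle markers, of which 13 lay below 0 (median -0.98, that is -0.59 against the sham and -1.35 against the untreated array); their summed intensity was 26604 early, 39391 for sham and 69686 for untreated. The sham array was below the untreated one in this list by a median of 0.79. Cfd, also named adipsin, read 422 against 943 and 1271 and was the 1 called of 9 adipocyte markers, 8 of them below 0 (median -0.73, and -0.27 with the floor at the 60th percentile). Rat pulmonary veins carry a sleeve of cardiac muscle, and the part of vein or fat in these samples was not tested. The mitochondrial respiratory chain, which includes Cox8b, had 51 of 59 measured genes below 0 with a median of -0.30 and 1 call. The ribosomal list had 44 of 68 below 0 (median -0.10) and no call.

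Of the other marker lists, alveolar type 2 cells (4 measured, median -0.03), club cells (3, -0.33), lymphoid cells (11, -0.02), mast cells (5), smooth muscle (7, 0.01), skeletal muscle (8, -0.15) and liver (8, -0.08) had no call by the representing probe sets. By any probe set, 1 smooth muscle and 1 mast cell marker were higher: the smooth muscle actin Acta2, in 2 probe sets (3098 against 1017 and 1082, and 4480 against 1634 and 2084; the representing one read 10249 against 10115 and 10170), and the receptor Kit (388 against 190 and a value under the floor). In the erythroid list Hbb, a beta globin, read 10501 early, 4017 and 5403 on the later arrays, 9118 for sham and 3544 for untreated.

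Probe sets without a single symbol were called higher at rates near that of named ones. Of 4869 measured probe sets with 1 symbol 165 (3.39%) were higher, of 229 with several 7 (3.06%), and of 833 not listed 24 (2.88%). Lower calls were spread differently: 17 had 1 symbol, none had several and 11 were not listed, 1.32% of that kind. Among those not listed, rc_AI014135_g_at read 2916 early, 205 and 457 on the later arrays, and was under the floor on both controls, at least 16.9-fold higher, and its partner from the same sequence, rc_AI014135_at, read 862 against 360 and 286. M11794cds#2_f_at read 13329 against 1649 and 1166, and D11445exon#1-4_s_at 6119 against 1165 and 262. M74494_g_at read 2391 against 237 and 705, and rc_AA799804_at 8653 against 2576 and 1793. The last also read 6665 on the intermediate array and 1196 on the late one. L00981mRNA#2_at, E00717UTR#1_s_at and X05861exon#1-6_s_at completed the 12 highest without 1 symbol, together with those listed under heat shock protein and metallothionein symbols above. The genes behind the unlisted probe sets were not identified.

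Of the other probe sets with several symbols, U39875_at (listed under Chp1l1 and Chp1) read 835 against 303 and 180, L36664_s_at (Ace3 and Ace) 2011 against 360 and 941, and rc_AI070848_f_at (Actg1l1, Actg1 and Actb) 29924 against 13699 and 14517. A pair of the lower unlisted probe sets had high signal: rc_AI007824_at read 8229 early against 38871, 21473, 24447 and 36406 on the intermediate, late, sham and untreated arrays, and rc_AI102044_at 3780 against 14277, 13239, 13257 and 12098. In both the early array alone stood low. By contrast K01934mRNA#2_at, at 549 against 1107 and 3008, read 578 and 458 on the later arrays and was low on every EHC-93 array.

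Probe sets of 1 gene often disagreed in size. Of the 93 higher genes 31 had another measured probe set; in 16 another one was called too, and in 27 all others lay in the same direction from both controls. If a gene counts as higher when any of its probe sets is, 143 of 3546 genes (4.03%) were higher and 17 (0.479%) lower. For the 50 genes that this adds to the higher side, the representing probe set lay in the same direction in 38, with a median difference of 0.38. Over 1012 genes with at least 2 measured probe sets, the median spread of the early difference between them was 0.39 on the log2 scale, and in 98 genes (9.68%) it was 1 or more.

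Differences between probe sets also went with the region of the transcript from which a probe set was made. Coding-region probe sets were called higher in 27 of 395 cases (6.84%) and those named as made from an mRNA in 11 of 158 (6.96%), against 62 of 2560 (2.42%) for expressed sequence tags, which usually come from 3′ ends. In 134 genes with both a coding-region and another measured probe set, the coding-region difference was the larger in 92, with a median of 0.21, and it was larger by at least 1 in 18 genes and smaller by at least 1 in 4. The same quantity had a median of -0.18 at the intermediate and -0.09 at the late times, and of 0.01 for the sham against the untreated array. The early array, which had this shift, had the highest 5′ to 3′ ratio of beta-actin and GAPDH and the intermediate array the lowest, but for hexokinase the intermediate array had the highest; their part in the calls was not tested. The larger difference of the coding-region probe set of Hmox1, and those of Calr and Errfi1, run in this direction, whereas that of Il6 runs against it.

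**Figure D5:**
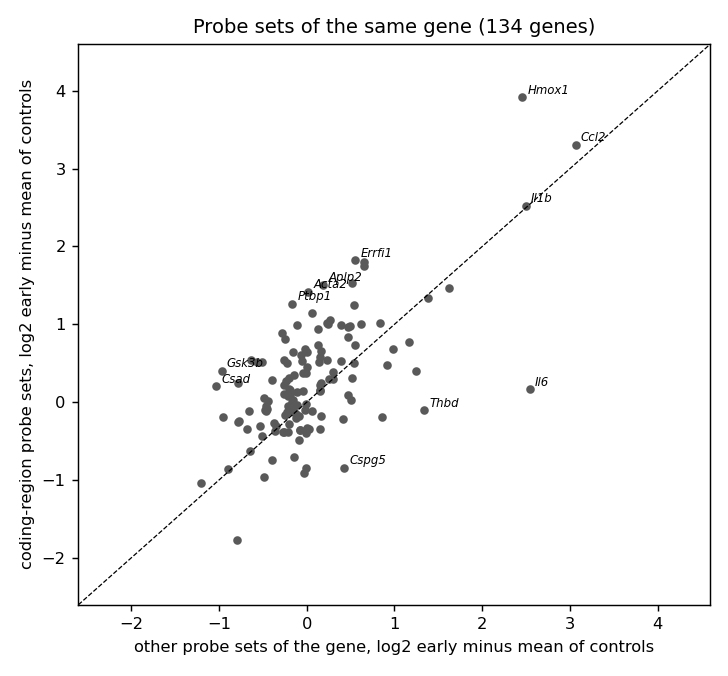
Each point is 1 of 134 genes, by the log2 difference of the early array from the mean of both controls in its other probe sets (horizontal axis) and in its coding-region probe sets (vertical axis); the dashed line marks equality. More points lie above the line (92) than below it, with Hmox1 among those above and Il6 and Thbd below.

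The higher genes were mostly at lower levels on the later EHC-93 arrays. The early value was at least 2-fold above the intermediate array in 61 of the 93, above the late array in 65 and above both in 51. Over the 93, the difference from the mean of both controls had a median of 1.47 early, 0.30 at the intermediate and 0.32 at the late times; the genes were chosen on the early array, so this is a description. Genes at or above their early value later were Padi4 (957 early, 1432 and 990 later), Mmp12 (381, then 749 and 822) and, on the intermediate array, Timp1 (3734, then 3997 and 2880). Ccl2 stayed far above the controls, at 5367 and 4277 against 888 and 812, and Nos2 at 682 and 559 against 186 and 181. In contrast 10 of the 93 were under the floor on both later arrays, Fosl1, Il6 and Tnf among them. Of the 11 lower genes, 2 were at least 2-fold lower early than on both later arrays, and the median differences were -1.34 early, -0.39 and -0.66 later.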

How the data were processed

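Lung RNA of rats was measured on 5 arrays, 1 per group, grouped by the array titles. The authors deposited 1 linear intensity per probe set and array; the sources used here do not name the algorithm or software behind them, and no detection calls entered. The 59 control probe sets served only for the 5′ to 3′ ratios. Genes were named through the platform annotation; 6985 probe sets had an identifier in the RefSeq gene table of GRCr8, which changed no symbol. Promoter windows are RefSeq's, from the same assembly.

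From the deposited intensity, arrays were scaled to the same median, values under the 40th percentile over all arrays (172.5) were set to it, and log2 was taken with Python 3.11.15, numpy 2.4.6 and pandas 2.3.3. A call is at least 2-fold from both controls in the same direction, with no test, since each group has 1 array; the number of arrays limits the precision. Folds against the floor are written "at least". A list gene is measured where it is above the floor on at least 1 of the 3 arrays; above or below 0 refers to its log2 difference from the mean of both controls. Named genes were the 30 highest and all lower called genes, up to 8 called members of each list (up to 3 of the highest mean level where none was called), and the 12 highest called probe sets without 1 symbol; other genes and probe sets were named after their values were seen. The lists, members and rules were chosen with earlier results of these data known, and 3 receptors that a symbol pattern had put among the interleukins were taken out after the values were seen. On simulated data the rule called 15 of 50 probe sets raised 2-fold, 50 of 50 raised 4-fold and 0 of 8540 unchanged ones. The simulated noise was a chosen value, and the raised probe sets lay well above the floor. These counts therefore give no rate of wrong or missed calls on the real arrays. Alternatives were other scalings, floors, fold thresholds, references and choices of probe set.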

Additional observations from a re-analysis of the deposited data

Results flagged for a closer look

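Cav1 was called in opposite directions on the early and the intermediate EHC-93 array. It read 2655 early and 317 on the intermediate array, with 808 for sham and 783 for untreated, so that early it was above the sham by 1.72 on the log2 scale, the smaller of its differences from the controls. The difference between the arrays was not tested.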

How the results depend on the processing

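With 1 array per group no replicate could be left out. No paired analysis was possible because each group had 1 array. Called genes named only after their values were seen, such as Mat2a, Arf2 and Rab7a, were left out of the counts of named genes below. No called gene named by the set rule changed direction under any scaling or floor tried. Of 84 such genes 42 were called in all 5 of these settings; 7 were not called on the values as deposited, 15 with arrays scaled to the same 75th percentile, 9 after quantile normalization, 1 with the floor at the 20th percentile and 33 with it at the 60th. Cd14, Gadd45a, Mmp12, S100a9, Selp and Timp1 were among those not called in each of the 3 other scalings. The median gene's difference from the mean of both controls moved from -0.03 to -0.11 as deposited and -0.13 at the 75th percentile.

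Counts of higher probe sets (196 as reported) and genes (93) were 330 and 146 with the floor at the 20th percentile, 124 and 53 at the 60th, 491 and 251 at 1.5-fold, 56 and 23 at 3-fold, and 315 and 158 against the sham alone. Higher genes numbered 148 against the untreated array alone and 143 by any probe set, an alternative added after the data were seen. Counts of lower probe sets (28 as reported) and genes (11) were 137 and 66 with the floor at the 20th percentile, 7 and 3 at the 60th, 186 and 109 at 1.5-fold, 1 and 0 at 3-fold, 117 and 68 against the sham alone, 135 and 75 against the untreated array alone, and 61 and 30 against the mean of both. Lower probe sets numbered 16 without those made from expressed sequence tags. Lower genes numbered 18 as deposited, 21 at the 75th percentile, 6 by the median over a gene's probe sets and 17 by any probe set. The lower floor and threshold admit more values and the higher ones fewer by construction; for the scalings the cause was not tested. Medians of lists depend on the same choices: of 59 list medians 38 moved by over 1.5 times or changed sign as deposited, 45 at the 75th percentile, 30 after quantile normalization, 16 with the floor at the 20th percentile and 42 at the 60th, where 28 became 0. Signs differed for 5, 6, 4, 5 and 0 lists in the same order. Of 118 list counts 43 moved by over 1.5 times in at least 1 setting. Signals near the floor give bounds only, so the size of differences of low genes is not known.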
